A study of Mus musculus with 14 samples.

Results

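Nuclear pore and nuclear transport genes were followed in left ventricles of UtyGT and wild-type (WT) male mice. They were taken by name: protein-coding genes whose symbol starts with Nup, Ipo, Xpo or Tnpo and a number, or with Kpna or Kpnb, together with Tpr, Ranbp2, Rae1, Ran and Cse1l. Of 47642 annotated genes, 48 were members, and 42 of these had enough counts to be tested. UtyGT mice carry the UtyGt(XS0378)Wtsi gene trap within an intron of Uty on chromosome Y, and WT mice were males of the isogenic C57BL/6.Y<129P2> strain without the trap. Both groups were 40 days old, and each of the 7 libraries per genotype came from a different mouse. RNA was sequenced with the QuantSeq 3′ FWD kit, whose reads come from the 3′ end of polyadenylated RNA. Levels are TMM-scaled CPM, the reads of a gene relative to the scaled total of reads assigned to genes, and fold changes are log2 of UtyGT over WT ± SE. A gene is said to be called where the adjusted p of the edgeR quasi-likelihood test, over all 11563 tested genes, was below 0.05.

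Nuclear pore complexes are the channels through the nuclear envelope. Their Y complexes and inner ring form the scaffold, nucleoporins with phenylalanine-glycine repeats fill the channel, filaments reach into the cytoplasm, and a basket extends into the nucleus. Importins and exportins of the importin beta family carry cargo through this channel, importin alpha proteins link importin beta to classical nuclear localization signals, and the GTPase Ran sets the direction of transport. In heart muscle cells, which rarely divide after the first weeks of life, scaffold nucleoporins are known as long-lived proteins.

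Of the tested members, 3 were called higher in UtyGT and 1 was called lower. The 3 that rose were Tpr of the nuclear basket, Ranbp2 of the cytoplasmic filaments and Xpo1, the main exportin of proteins. The member that fell was Nup93 of the inner ring. These are 7.14% of tested members higher and 2.38% lower, where 4.7% of all tested genes were called higher and 3.34% lower, so both shares were near those of all genes. The remaining 38 tested members were not called, and the median log2 fold change was 0.01 over members and 0.01 over all tested genes. Fold changes of members ran from -0.99 to 0.75 on the log2 scale, with 23 positive and 19 negative.

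**Figure D1:**
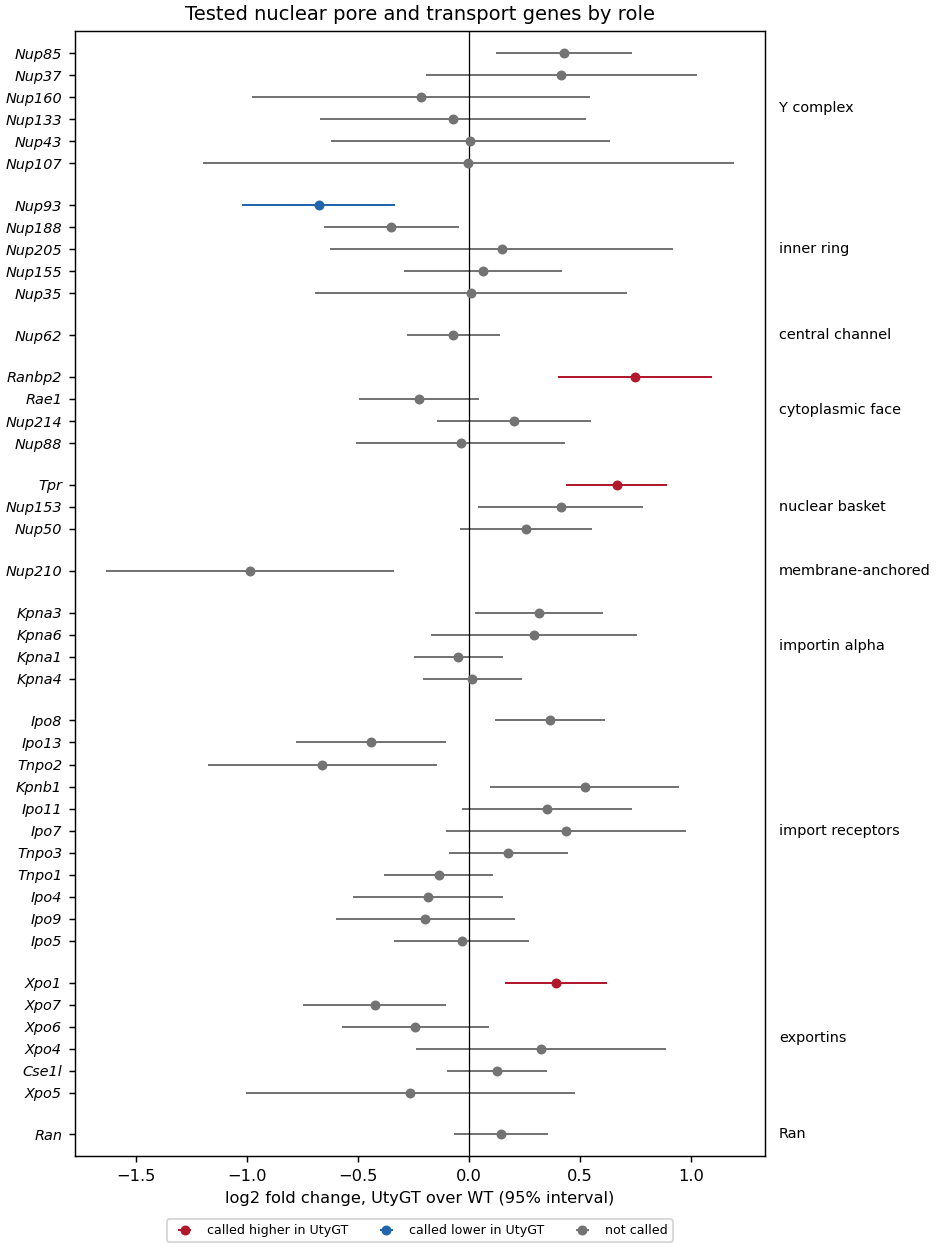
The log2 fold change of UtyGT over WT for each of the 42 tested members, grouped by role, with bars for the 95% interval derived from the edgeR F test. Tpr (0.67), Ranbp2 (0.75) and Xpo1 (0.39), in red, were called higher, and Nup93 (-0.68), in blue, was called lower, while the intervals of low-count members such as Nup107 and Nup210 are wide.

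The promoters of the 4 called members are shown because they are the members whose RNA level differed between genotypes. They come from RefSeq on GRCm38.p6 and span 250 bases before to 50 bases after the start, on the sense strand. Capitals mark matches on either strand to CCAAT (the CCAAT box), CGGAAG (an ETS core), CACGTG (an E-box), GGGCGG (the GC box), TGACG (the CRE core) and CATGCGC (part of the NRF1 site). The E-box and a GC box overlap in Nup93, which also holds a pair of overlapping GC boxes, so that their capitals run together.
Tpr, chr1:150392588-150392887, plus strand: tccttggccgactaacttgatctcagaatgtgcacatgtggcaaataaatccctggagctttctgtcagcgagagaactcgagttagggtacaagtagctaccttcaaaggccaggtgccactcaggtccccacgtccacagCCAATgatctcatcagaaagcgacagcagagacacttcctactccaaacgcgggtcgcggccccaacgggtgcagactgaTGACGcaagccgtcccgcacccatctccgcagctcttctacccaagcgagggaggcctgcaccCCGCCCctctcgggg
Ranbp2, chr10:58446602-58446901, plus strand: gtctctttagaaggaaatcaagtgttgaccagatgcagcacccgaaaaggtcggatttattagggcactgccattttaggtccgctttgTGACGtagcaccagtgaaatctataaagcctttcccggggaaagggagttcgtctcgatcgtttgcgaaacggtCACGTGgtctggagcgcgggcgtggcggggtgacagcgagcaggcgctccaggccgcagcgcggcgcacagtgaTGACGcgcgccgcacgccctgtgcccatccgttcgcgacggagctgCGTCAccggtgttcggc
Xpo1, chr11:23255791-23256090, plus strand: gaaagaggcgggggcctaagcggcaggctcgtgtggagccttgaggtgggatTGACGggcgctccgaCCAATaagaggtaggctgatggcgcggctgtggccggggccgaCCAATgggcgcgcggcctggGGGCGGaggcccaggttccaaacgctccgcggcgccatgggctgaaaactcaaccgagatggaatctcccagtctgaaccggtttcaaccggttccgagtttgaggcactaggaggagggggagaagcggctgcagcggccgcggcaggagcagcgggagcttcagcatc
Nup93, chr8:94214314-94214613, plus strand: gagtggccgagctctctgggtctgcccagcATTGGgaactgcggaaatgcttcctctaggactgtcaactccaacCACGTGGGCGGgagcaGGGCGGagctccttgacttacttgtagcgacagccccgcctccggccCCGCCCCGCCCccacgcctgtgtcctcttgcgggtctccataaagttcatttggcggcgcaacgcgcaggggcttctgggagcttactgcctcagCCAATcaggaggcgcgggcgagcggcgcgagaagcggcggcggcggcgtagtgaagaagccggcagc
The Ranbp2 start in RefSeq lies 68 bases from the gene start in the deposited table, and the other 3 coincide with it. Of the 6 motifs, none was matched in all 4 windows. TGACG was matched in the 3 members called higher, with 1 match in Tpr, 3 in Ranbp2 and 1 in Xpo1, and was not matched in the Nup93 window. CCAAT was matched in Tpr, Xpo1 and Nup93, and CACGTG in Ranbp2 and Nup93. Promoters were listed for 38 of the 48 members, with 45 starts. Of these 45 windows, TGACG was found in 44.4%, where 20.8% of all 32851 listed promoters held it. CCAAT was found in 53.3% of member windows and 37.4% of all, CGGAAG in 31.1% and 16.9%, and CACGTG in 17.8% and 7.15%. GGGCGG was found in 64.4% of member windows and 35.7% of all, and CATGCGC in 17.8% and 3.91%. All 6 shares were larger in member windows. The listed promoters were not matched to the members in expression or base content, so these shares are no test of enrichment. These matches are a description of letters and say nothing of whether a factor is bound there.

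Before the members were examined, the libraries were compared. Uty, the trapped gene, had 3, 3, 6, 4, 1, 3 and 2 counts in UtyGT libraries and 74, 56, 50, 47, 61, 47 and 75 in WT libraries, so no library went against its label (log2 fold change -4.22 ± 0.28, edgeR adjusted p = 2.12e-07). Libraries are numbered in the order of the deposited columns, UtyGT 1 to 7 and WT 1 to 7. Counts assigned to genes were 6357485 to 10268706 in UtyGT libraries and 6322161 to 9397378 in WT libraries. UtyGT 6 and WT 4 lay at the same end of the first principal component, at 54.7 and 59.1, where the means were -11.5 in UtyGT and 11.5 in WT. UtyGT 6 was the highest or lowest UtyGT library for 25 of 42 members (59.5%) and for 63.7% of all tested genes, and WT 4 was the highest or lowest WT library for 21 of 42 members and 49.7% of all tested genes. WT 6 and 7 lay at -24.6 and -33.2, apart from WT 1 to 5 at 11.1 to 59.1. The calls that members and listed genes gained without UtyGT 6 are given below. Of 5 heart muscle markers, 1 was called higher in UtyGT, and the list summed to 29046 to 58573 CPM in UtyGT and 26418 to 45654 CPM in WT. Of 5 endothelial markers, 2 were called lower in UtyGT (summed level 425 to 611 CPM in UtyGT and 546 to 809 CPM in WT), as were 2 of 5 red cell markers (1071 to 5117 CPM in UtyGT and 3192 to 6874 CPM in WT). No endothelial or red cell marker was at 0. No marker was called for fibroblasts, smooth muscle and pericytes, macrophages, atrial muscle, adipocytes, skeletal muscle or proliferating cells. Only 1 of 4 adipocyte, 1 of 4 skeletal muscle and 3 of 4 proliferating cell markers had enough counts to be tested. In bulk tissue, fewer cells of a type and less RNA per cell cannot be told apart, and the part of cell makeup in the results below was not tested.

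In the nuclear basket, Tpr, the coiled-coil protein that forms the basket filaments, was the member with the smallest adjusted p. Tpr (ENSMUSG00000006005, GRCm38 chromosome 1, 150392838 to 150449935) had 261, 211, 252, 245, 208, 222 and 245 CPM in UtyGT libraries 1 to 7, against 181, 171, 152, 136, 129, 136 and 131 CPM in WT libraries 1 to 7. The lowest UtyGT library stood above the highest WT library, so the genotypes did not overlap. Among all tested genes, 1.46% had every UtyGT library above every WT library and 0.675% had every one below. Tpr was the only member separated upward in this way, and no member was separated downward. Tpr averaged 235 ± 21.0 CPM in UtyGT and 148 ± 21.0 CPM in WT (SD, n = 7 each), a log2 fold change of 0.67 ± 0.11 (edgeR adjusted p = 0.00309). It was called under each of 24 alternative settings, with adjusted p of up to 0.0133, and its depth was 13171 counts over UtyGT libraries and 8008 over WT libraries. Prg4, on the opposite strand, overlaps or comes within 1 kb of the 3′ end of Tpr, and the strand setting of the counting is not settled by the sources used here. Opposite-strand genes lie as near the 3′ ends of Tnpo2, Ipo11, Ipo7, Tnpo3, Nup214, Nup88, Nup133 and Nup43, so the same limit holds for them.

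Tpr also took most of the difference in the summed level of all members. That sum was 1459 to 1612 CPM in UtyGT libraries and 1364 to 1472 CPM in WT libraries, and the ranges overlapped. The means differed by 141 CPM, of which Tpr made up 86.8 CPM (61.6%). Without Tpr, members summed to 1214 to 1382 CPM in UtyGT and 1225 to 1290 CPM in WT. The other basket members were not called: Nup153, which anchors the basket to the ring, had a log2 fold change of 0.41 ± 0.18 (edgeR adjusted p = 0.157) and Nup50, a cofactor of importin alpha release, one of 0.26 ± 0.14 (adjusted p = 0.266).

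On the cytoplasmic face, Ranbp2 rose. Ranbp2 encodes the large filament protein also known as Nup358, which binds Ran and acts as a SUMO E3 ligase. Ranbp2 (ENSMUSG00000003226, GRCm38 chromosome 10, 58446920 to 58494356) had 35.7, 44.9, 46.4, 27.1, 21.9, 27.8 and 35.6 CPM in UtyGT libraries, against 21.8, 24.8, 17.0, 17.4, 18.9, 19.2 and 23.2 CPM in WT libraries. All UtyGT libraries but UtyGT 5 lay above every WT library, and UtyGT 2 and 3 were the highest. The means were 34.2 ± 9.22 CPM in UtyGT and 20.3 ± 2.98 CPM in WT (SD, n = 7 each), a log2 fold change of 0.75 ± 0.17 (edgeR adjusted p = 0.0132), and Ranbp2 was called under each of 24 alternatives with adjusted p of up to 0.0344. Processed copies of Ranbp2 are annotated in the mouse genome, and how reads matching several places were treated is not given in the sources used here. Rae1, an mRNA export factor, had a log2 fold change of -0.23 ± 0.13 (edgeR adjusted p = 0.289), and Nup214, which binds the export receptor XPO1, one of 0.20 ± 0.17 (adjusted p = 0.471). Nup88, the partner of Nup214, was not called either, at -0.04.

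In the inner ring, Nup93 fell. Nup93 is the linker of this ring, holding Nup188 or Nup205 and the channel nucleoporins. Nup93 (ENSMUSG00000032939, GRCm38 chromosome 8, 94214564 to 94317227) had 26.7, 21.0, 21.4, 28.4, 44.4, 33.8 and 37.8 CPM in UtyGT libraries, against 58.4, 42.8, 47.4, 58.6, 43.4, 49.2 and 42.3 CPM in WT libraries. All UtyGT libraries but UtyGT 5, which lay within the WT range, were below every WT library. Means of 30.5 ± 8.66 CPM in UtyGT and 48.9 ± 7.06 CPM in WT (SD, n = 7 each) gave a log2 fold change of -0.68 ± 0.16 (edgeR adjusted p = 0.0205), called under each of 24 alternatives with adjusted p of up to 0.0473. UtyGT 5 was the UtyGT library nearest to WT for Nup93, Ranbp2 and Tpr, although its Tpr level of 208 CPM still stood above all WT libraries.

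None of the other 4 tested inner ring members was called. Nup188 and Nup205 are related large scaffold proteins. Nup188 had a log2 fold change of -0.35 ± 0.14 (edgeR adjusted p = 0.142), with 5 UtyGT libraries below all WT libraries, and Nup205 one of 0.15 ± 0.37 (adjusted p = 0.842) on few counts, 159 in UtyGT and 137 in WT. Nup155 and Nup35 stood at 0.06 and 0.01. Nup62 of the central channel was not called, with a log2 fold change of -0.07 and a 95% interval of -0.28 to 0.14 (edgeR adjusted p = 0.708). Il4i1 overlaps the 3′ end of Nup62 on the same strand, so their reads may not be told apart.

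**Figure D2:**
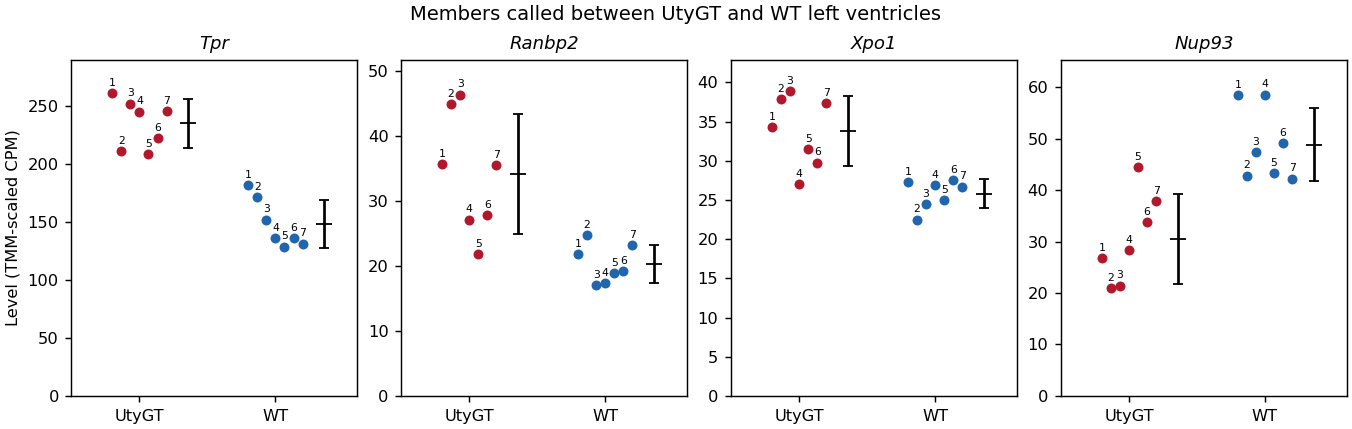
Level in TMM-scaled CPM of the 4 called members in each library, with the library number above its point and the mean and SD of the 7 libraries at the side. Tpr separates the genotypes completely (208 to 261 CPM in UtyGT and 129 to 181 CPM in WT), whereas Ranbp2, Xpo1 and Nup93 each have 1 UtyGT library (5, 4 and 5) inside the WT range.

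Among exportins, Xpo1 rose. Xpo1, also known as CRM1, exports proteins with leucine-rich export signals. Xpo1 (ENSMUSG00000020290, GRCm38 chromosome 11, 23256041 to 23298249) had 34.3, 37.8, 38.9, 27.0, 31.5, 29.8 and 37.3 CPM in UtyGT libraries, against 27.3, 22.5, 24.5, 26.9, 25.0, 27.5 and 26.7 CPM in WT libraries. UtyGT 4 lay within the WT range and the other UtyGT libraries above it. The means were 33.8 ± 4.52 CPM in UtyGT and 25.8 ± 1.85 CPM in WT (SD, n = 7 each), a log2 fold change of 0.39 ± 0.11 (edgeR adjusted p = 0.0368). Xpo1 was called in 12 of 24 alternatives and was lost without any one of UtyGT 1, 2, 3 or 7 or WT 1 to 5 (adjusted p = 0.0571 to 0.0880), on unfiltered counts (0.129) and after corrections for GC content of the whole transcript (0.242) or of its last 500 nt (0.0979).

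The other exportins were not called. Xpo7, a receptor of broad cargo that works in both directions, had a log2 fold change of -0.43 ± 0.15 (edgeR adjusted p = 0.0946), with 6 UtyGT libraries below all WT libraries, and Npm2 overlaps its 3′ end on the same strand. Xpo6, the exportin of actin, stood at -0.24 ± 0.16 (adjusted p = 0.361). Xpo4, Xpo5, which exports microRNA precursors, and Cse1l, which returns importin alpha to the cytoplasm, ran from -0.26 to 0.33. Ran itself had 89.1 to 115 CPM in UtyGT and 77.9 to 106 CPM in WT, with a log2 fold change of 0.14 ± 0.10 and a 95% interval of -0.07 to 0.36 (edgeR adjusted p = 0.394).

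No importin alpha and no import receptor was called by edgeR, although 1 of 4 importin alpha genes and 4 of 11 import receptors had an unadjusted p below 0.05, where 24.8% of all tested genes did, and DESeq2 called 1 import receptor, Ipo8, higher. Kpna3 stood at 0.32 ± 0.14 (edgeR adjusted p = 0.159), with 5 UtyGT libraries above all WT libraries, and Kpna6 at 0.29 ± 0.22 (adjusted p = 0.431). Kpna1 and Kpna4 were at -0.05 and 0.01, with 95% intervals of -0.25 to 0.15 and -0.21 to 0.24. The 11 import receptors ran from -0.66 to 0.52, with 5 positive and 6 negative. Of these, Ipo8, which imports Argonaute proteins, stood at 0.36 ± 0.12 (adjusted p = 0.0656) and Ipo13, which imports such cargo as UBC9, at -0.44 ± 0.16 (adjusted p = 0.101). Kpnb1, Tnpo2 and Ipo11 were chosen after their values were seen. Kpnb1, or importin beta, stood at 0.52 ± 0.20 (adjusted p = 0.119) and Tnpo2, a transportin of RNA-binding proteins, at -0.66 ± 0.25 (adjusted p = 0.105).

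In the Y complex, none of 6 tested members was called by edgeR or DESeq2, and 1 had an unadjusted p below 0.05. Nup85 stood at 0.43 ± 0.15 (edgeR adjusted p = 0.0782), with 5 UtyGT libraries above all WT libraries, and Nup37 at 0.42 ± 0.29 (adjusted p = 0.391). The remaining 4 ran from -0.22 to 0.01. Nup107, picked after its values were seen, varied most within a genotype: it had 5.85, 14.5, 13.7, 5.06, 4.58, 2.21 and 15.6 CPM in UtyGT libraries and 5.88, 5.39, 3.67, 0.276, 6.13, 20.6 and 19.6 CPM in WT libraries. Its lowest levels were those of UtyGT 6 and WT 4, and WT 6 and 7 were high. Nup210, the membrane-anchored member, had low counts, 67 over UtyGT and 127 over WT libraries. It had 1.33, 0.563, 0.943, 1.07, 1.06, 2.42 and 0.702 CPM in UtyGT libraries, against 3.48, 3.10, 1.63, 2.21, 2.12, 2.09 and 1.70 CPM in WT libraries. All UtyGT libraries but UtyGT 6 lay below every WT library, and the log2 fold change of -0.99 ± 0.31 was not called (edgeR adjusted p = 0.0566). It was called lower by DESeq2 (adjusted p = 0.0362) and under 6 other alternatives.

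Several calls changed when UtyGT 6 was left out. Without UtyGT 6, 7.87% of 11679 tested genes were called higher and 11.4% lower, and so were 6 and 5 members. The added members were Ipo8 (edgeR adjusted p = 0.0269), Ipo11 (0.0371, against 0.239 with all libraries) and Kpnb1 (0.0387), which were higher, and Nup210 (0.00620), Tnpo2 (0.00243), Ipo13 (0.0145) and Xpo7 (0.0147), which were lower. Tnpo2, chosen after its values were seen, had 22.9, 17.7, 16.0, 23.0, 20.7, 49.6 and 18.3 CPM in UtyGT libraries, against 40.7, 43.3, 41.6, 51.7, 42.1, 22.0 and 24.9 CPM in WT libraries. UtyGT 6 lay among WT 1 to 5, while WT 6 and 7 were close to the other UtyGT libraries. Ipo13 had a like arrangement, with 38.2 CPM in UtyGT 6 and 21.0 to 28.6 CPM in the other UtyGT libraries, against 24.5 and 26.1 CPM in WT 6 and 7 and 39.8 to 43.6 CPM in WT 1 to 5. Not all added members shared this arrangement. For Nup210, WT 6 and 7, at 2.09 and 1.70 CPM, lay above every UtyGT library but UtyGT 6. For Ipo8, WT 6 was the lowest WT library, at 20.7 CPM. With both UtyGT 6 and WT 4 left out, 4 members were called higher and 5 lower. The shares over all tested genes are not given for this setting, so these counts are not a result about the members.

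**Figure D3:**
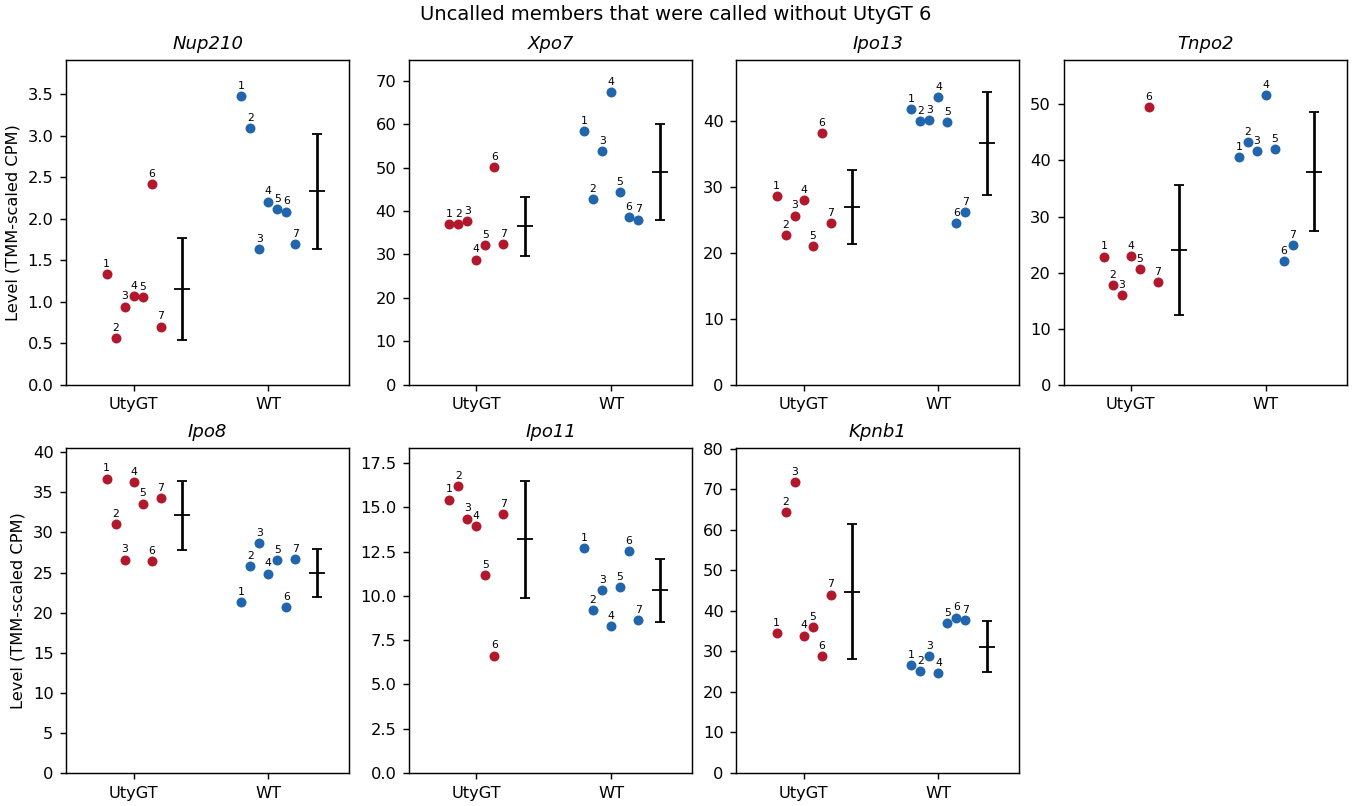
Level in TMM-scaled CPM of the 7 members that were not called with all libraries but were called without UtyGT 6, with library numbers above the points and the mean and SD at the side. UtyGT 6 is the highest UtyGT library for Nup210, Xpo7, Ipo13 and Tnpo2 and the lowest for Ipo8, Ipo11 and Kpnb1.

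For 15 of the 38 uncalled members the 95% interval lay within 1.5-fold in either direction, and these included Ran, Kpna1, Kpna4, Cse1l, Nup62, Ipo5 and Tnpo3. A further 10 uncalled members had an unadjusted p below 0.05, which with the called members makes 14 of 42 (33.3%), where 24.8% of all tested genes had one. The intervals of the uncalled members outside these 15 reached beyond 1.5-fold, so they leave room for a change of that size. Among the members with most counts, Ipo5, which imports ribosomal proteins and histones, had 99.9 to 175 CPM in UtyGT and 89.9 to 145 CPM in WT. Ipo7, picked after its values were seen, had 46.4 to 178 CPM in UtyGT and 43.0 to 127 CPM in WT, with the lowest level of each genotype in UtyGT 6 and WT 4.

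The count filter left out 6 members. Nup54 of the central channel had 81 counts over UtyGT and 39 over WT libraries, with 3 UtyGT libraries above all WT libraries. Nup98 had 48 counts over UtyGT and 38 over WT libraries. Kpna2, an importin alpha of dividing cells, had 40 over UtyGT and 26 over WT libraries, with 20 of the 26 in WT 7. Nup62cl had 1 count over UtyGT and 3 over WT libraries. Nup210l and Kpna7, whose expression is known mainly from germ cells and early embryos, had 0 counts of 110927885 in all, which allows up to 3 counts.

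GC content moved with the fold changes. Within libraries, the log2 level of genes relative to their mean changed by -0.11 ± 0.15 per 10 points of GC in UtyGT and 0.11 ± 0.13 in WT (mean and SD, n = 7 each). The genotypes overlapped in this slope, which was 0.14 in UtyGT 6, -0.02 in WT 6 and -0.08 in WT 7. Across the 42 tested members, GC content of the longest transcript and log2 fold change had a Pearson r of -0.49 (Spearman rho -0.44), and across 11550 tested genes an r of -0.38 (rho -0.40). These are descriptions across genes, which share libraries and are not replicates. Members below 45% GC had a median log2 fold change of 0.13 (17 members) and those at or above it one of -0.04 (25 members), where all tested genes had 0.17 and -0.05. The 3 members that rose had GC contents of 40.4% (Xpo1), 40.6% (Ranbp2) and close to 45% (Tpr), and Nup93 had 48.6%.

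With a GC correction for each library, 2.67% of tested genes were called higher and 2.14% lower, and 2 members were called higher and 1 lower. Tpr (log2 fold change 0.53, edgeR adjusted p = 0.0133), Ranbp2 (0.56, adjusted p = 0.0262) and Nup93 (-0.73, adjusted p = 0.0229) were called with it. Xpo1 was not called, at 0.20 (adjusted p = 0.242), which is a change of more than 1.5 times in its log2 value. Several uncalled members also moved by more than 1.5 times. Their log2 fold changes with the GC correction were 0.15 for Kpna3, 0.22 for Ipo8, 0.19 for Ipo11, 0.27 for Nup37, 0.08 for Nup205 and 0.07 for Ran, all smaller, and so were -0.23 for Ipo13 and -0.13 for Rae1. Those of Nup214 (0.31) and Xpo6 (-0.39) were larger. With the correction on the last 500 nt, Nup188 stood at -0.10 (edgeR adjusted p = 0.768), Ipo13 at -0.17, Nup153 at 0.25 and Nup214 at 0.44. None of these was called with the GC correction, and Nup188, Ipo13, Nup153 and Nup214 were not called with the correction on the last 500 nt.

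**Figure D4:**
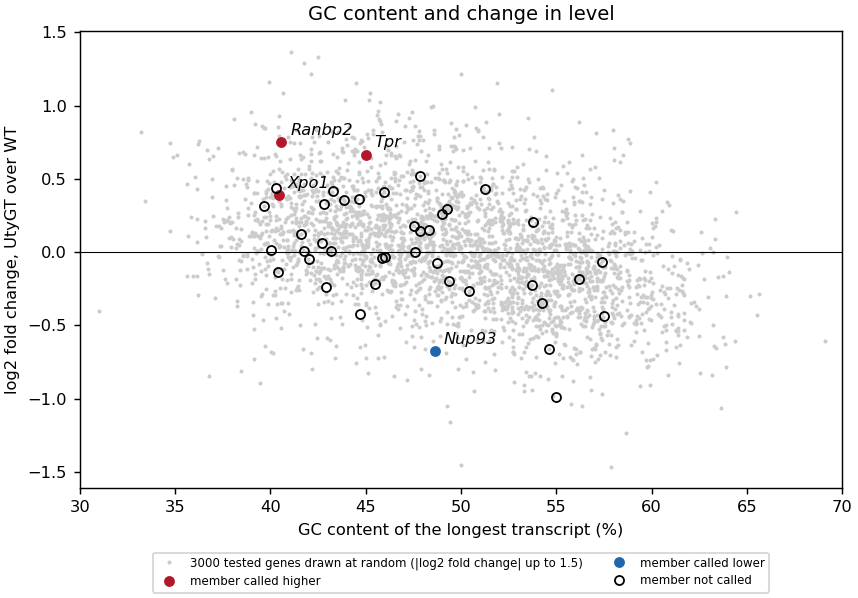
GC content of the longest transcript (percent) against log2 fold change of UtyGT over WT for the 42 tested members over 3000 tested genes drawn at random, with values beyond 1.5 on the log2 scale not drawn. Ranbp2 (40.6% GC) and Xpo1 (40.4%) sit on the side of low GC content, where most genes have positive values, and Nup93 (48.6%) lies below most genes of its GC content.

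A further 43 genes stood in 3 lists: other nucleoporins, the Ran cycle and transport adaptors, and the nuclear lamina and envelope. Of these 43, 1 was called higher (2.33%) and 1 lower (2.33%), where 4.7% and 3.34% of all tested genes were. Without UtyGT 6, 3 were called higher and 8 lower, where 7.87% and 11.4% of all tested genes were. Unadjusted p below 0.05 is given below as a count, beside a share of 24.8% over all tested genes. Of 9 other nucleoporins, none was called in either direction by edgeR, 2 had an unadjusted p below 0.05 and DESeq2 called 1 lower, and Pom121, a membrane nucleoporin, came nearest (log2 fold change -0.48 ± 0.15, adjusted p just above the threshold). With the GC correction Pom121 stood at -0.27 (adjusted p = 0.221). Without UtyGT 6, Pom121 (-0.55, adjusted p = 0.0147) and Ndc1 (adjusted p = 0.0493) were called lower. Of 16 genes of the Ran cycle and transport adaptors, Ncbp2, a subunit of the nuclear cap-binding complex, was called higher, with 56.0 ± 8.01 CPM in UtyGT and 40.1 ± 3.68 CPM in WT (SD, n = 7 each; log2 fold change 0.48 ± 0.11, edgeR adjusted p = 0.0153), and none was called lower, where 6 had an unadjusted p below 0.05 and DESeq2 called 1 higher and 2 lower. The Ncbp2 call was lost with the GC correction (adjusted p = 0.128). Without UtyGT 6, Ncbp2, Ncbp1 (edgeR adjusted p = 0.0404) and Rangrf (0.0226) were called higher, and Nutf2 (0.00782), Snupn (0.0151), Ranbp3 (0.0413) and Ddx19a (0.0421) lower. Of 18 genes of the nuclear lamina and envelope, none was called higher by edgeR or DESeq2, 4 had an unadjusted p below 0.05 and DESeq2 called 2 lower. Emd, encoding emerin, was called lower by edgeR, with 99.5 ± 13.4 CPM in UtyGT and 139 ± 18.0 CPM in WT (SD, n = 7 each; log2 fold change -0.48 ± 0.11, edgeR adjusted p = 0.0186). Emd (adjusted p = 0.00380) and Lmnb1 (0.0216) were called lower without UtyGT 6. The median log2 fold changes were 0.03 for other nucleoporins, -0.0040 for the Ran cycle and adaptors and 0.09 for the lamina and envelope, against 0.01 for all tested genes.

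**Figure D5:**
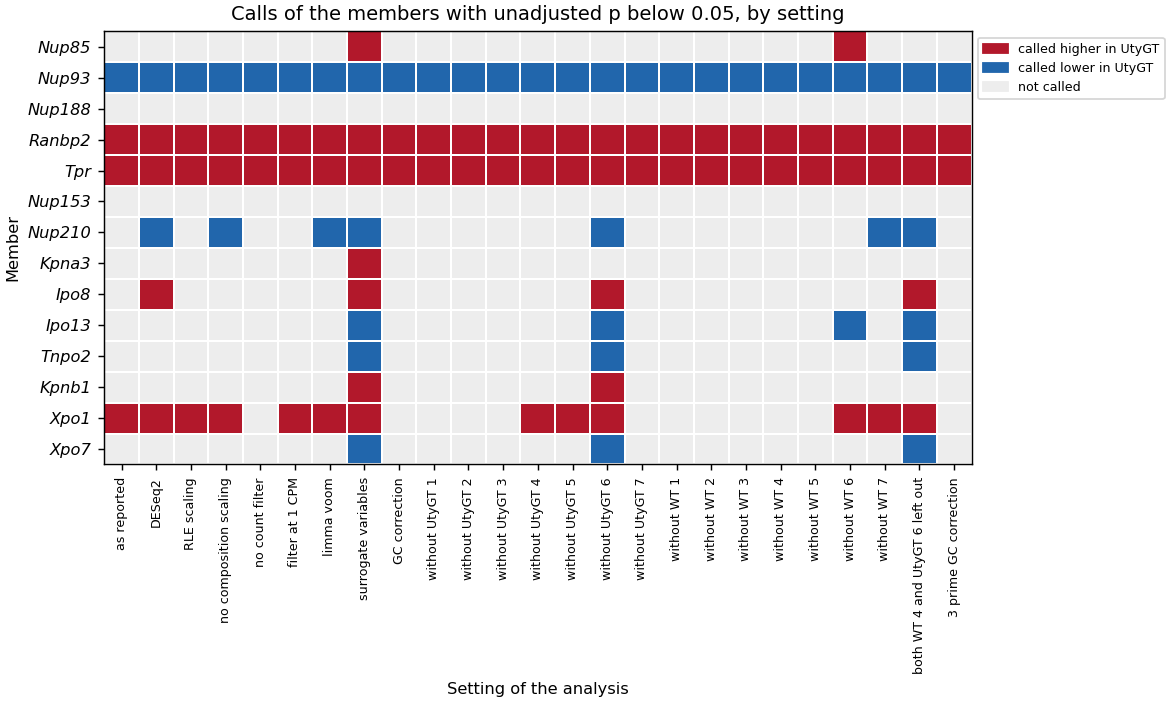
Calls of the 14 members with an unadjusted p below 0.05 (down the page) under the reported analysis and 24 alternative settings (across). Tpr and Ranbp2 are called higher and Nup93 lower in every column, Xpo1 is called in 12 alternatives, and most further calls stand in the columns for surrogate variables and for leaving out UtyGT 6.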

How the data were processed

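Expression in the left ventricle was profiled with 14 libraries, 7 per genotype, assigned to UtyGT or WT by the sample labels and the column names of the table. The authors deposited raw counts per gene on GRCm38/mm10, for which the submitters' processing notes name CASAVA 1.4, FastQC, STAR, featureCounts 1.6.0 and DESeq2 1.22.2. Columns with the authors' own fold changes and p-values were not used. A further 5 rows name no gene. They took 45.9% to 47.7% of reads in UtyGT and 46.3% to 49.1% in WT and were removed.

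The edgeR 4.0.16 package in R 4.3.3 was applied to the counts: filterByExpr with a minimum count of 10, TMM, the robust quasi-likelihood F test, and Benjamini-Hochberg adjustment over 11563 genes. That test gives no SE, so the SE was taken as the absolute log2 fold change over the square root of F. The 95% intervals used this SE with a t quantile. Other settings were limma 3.58.1 voom, sva 3.50.0 (1 surrogate variable), DESeq2 1.42.0, scaling by RLE or by library totals alone, no filter or one at 1 CPM in 7 libraries, a lowess GC correction per library, and omission of each library or of UtyGT 6 with WT 4. A GC correction on the last 500 nt (3′ GC) was added after seeing the data. GC content came from GENCODE M21. Between libraries of a genotype, chi-square per gene was 6.28 to 128, so none was a second deposit of another. No source used here names molecular identifiers, so floors cover counting error only.

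Called members were described in full, with the 2 uncalled members of smallest p in each role class. Members and lists were chosen with earlier results of these data known.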

Additional observations from a re-analysis of the deposited data

Results flagged for a closer look

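Among 48 genotype groups of 7 libraries, those of the named members, 5 held a library whose gap to the nearest other library exceeded Dixon's 95% critical value for 7 samples, a criterion that chance meets in about 1 of 20 groups. Tnpo2, Kpnb1 and Ipo11 were added after their values were seen, so their groups cannot be set against that rate. Among the 42 groups of the other members, 4 held such a library. These groups share the same 14 libraries and are not independent, so this count cannot be set against that rate either. UtyGT 6 was that library for Tnpo2 (49.6 CPM, with 23.0 CPM in the next UtyGT library), Xpo7 (50.1 CPM, next 37.7 CPM) and Nup210 (2.42 CPM, next 1.33 CPM), each time as the highest. WT 4 was the highest WT library for Nup62 (39.6 CPM, next 33.3 CPM), and WT 3 for Nup188 (13.2 CPM, next 11.1 CPM).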

How the results depend on the processing

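Tpr, Ranbp2 and Nup93 kept their direction and their call under all 24 alternatives, and Xpo1 kept its direction but was called in 12. The count of members called higher, 3, was 4 with DESeq2 and with UtyGT 6 and WT 4 left out, 2 on unfiltered counts and with either GC correction, 8 with surrogate variables and 2 to 6 when libraries were left out in turn (6 without UtyGT 6). The count called lower, 1, was 2 with DESeq2, no composition scaling, voom and the 3′ GC correction, 5 with surrogate variables and with UtyGT 6 and WT 4 left out, and 1 to 5 when libraries were left out in turn (5 without UtyGT 6, 2 without WT 6 or WT 7). The lower call added by the 3′ GC correction was not among the members with an unadjusted p below 0.05 in the reported analysis. Over all genes, the counts called higher and lower were 543 and 386 in the reported analysis, 714 and 666 with DESeq2, 337 and 275 on unfiltered counts, 309 and 247 with the GC correction, 387 and 291 with the 3′ GC correction, and 1255 and 1245 with surrogate variables, each given higher first. No such count is given for UtyGT 6 and WT 4 left out, for no composition scaling or for voom. Nor is one given for leaving out any library other than UtyGT 6. Member counts under these settings are therefore not a result about the members. The number of tested genes also differed between settings, and 22002 genes held a count when no filter was used. Nup205 changed sign with surrogate variables (-0.054) and ranged from -0.14 (without UtyGT 7) to 0.40 when libraries were left out, and Nup62 changed sign with the GC (0.14) and 3′ GC (0.0023) corrections, all without a call. Of all tested members, 13 changed sign under at least 1 alternative, Nup35 under 13 and Nup43 under 12 of 24. None of the 13 was called, and their log2 fold changes lay between -0.26 and 0.15. The cause was not tested. No paired analysis was possible because library numbers follow the columns of the table and tie no UtyGT library to a WT library. The sample titles carry numbers in 2 ranges in both genotypes, but the labels do not say what these mark, and the columns could not be matched to them. The median width of the 95% intervals of the uncalled members was 0.70 on the log2 scale, which limits what these members can show.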
